A study of Mus musculus with 4 samples.

Results

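Glucose production and glucose sensing in the liver were followed through 9 genes: G6pc, Pck1, Fbp1 and Pcx, the enzymes that carry gluconeogenesis past the irreversible steps of glycolysis, the glucose-6-phosphate transporter Slc37a4, the coactivator Ppargc1a, the glycolytic and regulatory enzymes Pklr and Pfkfb1, and the glucose transporter Slc2a2. The genes were taken by symbol from a table of 35275 genes, and each symbol gave 1 gene. All 9 were among the 12180 genes with at least 1 CPM (counts per 1000000, with library sizes scaled by TMM, the trimmed mean of M-values) in at least 1 library.

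Hepatocytes make glucose from lactate, amino acids and glycerol. Pyruvate carboxylase and PEPCK turn pyruvate into phosphoenolpyruvate, fructose-bisphosphatase removes a phosphate further up, and glucose-6-phosphatase, working inside the endoplasmic reticulum, releases free glucose. Glucagon and glucocorticoids raise the transcription of G6pc, Pck1 and Ppargc1a while insulin lowers that of G6pc and Pck1, and glucose itself, through the factor encoded by Mlxipl, raises that of Pklr.

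Liver RNA came from female mice of 4 groups. VS mice received vehicle and stayed sedentary, VI mice received vehicle and interval treadmill training (IT), FS mice received AApoAII amyloid fibrils by intravenous injection and stayed sedentary, and FI mice received fibrils and IT. Every group, controls included, carried the amyloidogenic Apoa2c allele, for which the labels give the strain AKR/J and the study's methods a SAMR1 background. Livers were taken at 26 weeks of age, after 16 weeks of intervention and within a day of the last training. No source used here gives the feeding state or the clock time of sampling. Tissue of 4 mice was pooled per group before RNA extraction, so each group is 1 library, no value has an error across mice, and no p-value belongs to a contrast of 2 libraries.

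The libraries held between 23442935 and 28814802 counts, with TMM factors from 0.9754 to 1.025 and a mitochondrial share of 2.99% to 3.32%. All 7 hepatocyte markers found were present in every library, with a summed level of 149100 to 169700 CPM, while the 6 kidney markers, from the other organ that makes glucose, summed to at most 0.123 CPM. The 13 skeletal muscle markers summed to 83.9 CPM in VS against 11.3 in VI, and 2.17 in FS against 2.15 in FI, so the VS library stood apart in muscle RNA. In bulk tissue, fewer cells of a type and less RNA per cell cannot be told apart. Intervals are at 95% and cover counting error only. Reads counted without molecular identifiers may share a molecule, so the intervals may be too narrow even for that error.

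Promoter stretches of 4 of the genes are shown: G6pc, Ppargc1a and Pklr, which had the largest training estimates of the 9 genes in a model of both factors, and Pck1, another hormone-regulated gene, which had a small one. They are RefSeq sequence on GRCm38.p6, 5′ to 3′, starting 250 bases before the annotated start and ending before the first base that GENCODE M21 places in an exon of the gene. Capitals mark the short core of the cyclic AMP response element, TGACG, on either strand. The stretches lie at chr11:101367466-101367560 (plus strand), chr2:173152823-173153047 (plus), chr5:51567727-51567975 (minus) and, for the start of Pklr used in liver, chr3:89136373-89136571 (plus).
G6pc: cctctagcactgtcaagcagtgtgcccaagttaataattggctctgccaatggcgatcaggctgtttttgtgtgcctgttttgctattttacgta
Pck1: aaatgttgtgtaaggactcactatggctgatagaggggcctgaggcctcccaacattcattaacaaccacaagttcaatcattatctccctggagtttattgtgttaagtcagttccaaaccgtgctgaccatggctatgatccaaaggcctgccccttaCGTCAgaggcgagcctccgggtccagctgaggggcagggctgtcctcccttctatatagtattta
Ppargc1a: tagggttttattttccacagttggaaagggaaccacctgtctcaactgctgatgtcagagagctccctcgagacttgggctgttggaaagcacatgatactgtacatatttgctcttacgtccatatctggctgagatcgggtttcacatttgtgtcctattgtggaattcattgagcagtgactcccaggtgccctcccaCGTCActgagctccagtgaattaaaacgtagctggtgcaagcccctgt
Pklr: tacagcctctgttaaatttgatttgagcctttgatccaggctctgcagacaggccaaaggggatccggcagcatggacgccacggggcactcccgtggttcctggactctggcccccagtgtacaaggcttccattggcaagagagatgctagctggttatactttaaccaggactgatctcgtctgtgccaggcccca

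This core began at position -90 in Pck1 and -49 in Ppargc1a, counted from -1 at the base before the RefSeq start. Over the 16 annotated windows of the 9 genes, searched on both strands over 250 bases, it was found for 3 genes, the other one being Slc37a4, and in 17.8% of all 32851 promoter windows. The full element TGACGTCA, present in 1.55% of all windows and which contains the core, and the FOXO motif TGTTTAC, present in 3.17%, were found for 0 of the 9 genes. The E-box CACGTG (6.02% of all windows) was found for 1 gene, Pcx, and TATAAA (12.4%) for 4 genes, among them G6pc at -29 and Pklr at -31, past the bases printed. A gene was counted if any of its windows held the motif, while the shares are of single windows, so counts and shares are not like for like. Only these exact letters were searched, so sites that differ by a base were not counted. These letters are a description of the windows and say nothing of binding.

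Pck1, which encodes the cytosolic PEPCK, was the most abundant of the 9 genes per length. Its FPKM levels (count per kilobase of gene length and per 1000000 counts of the library) ran from 1407 in VS to 1878 in FI and ranked between 35 and 46 among all genes. Fbp1 followed with levels of 556 to 658 FPKM. Pcx (146 to 194 FPKM) and Slc37a4 (129 to 179.5 FPKM) had levels of the same order, and so did G6pc in VI, at 157 FPKM. G6pc moved most in this order, from the sixth of the 9 genes in VS and FS to the third in FI. Slc2a2 had levels between 60.3 and 94.0 FPKM. The lowest levels were those of Pklr (10.5 to 21.9 FPKM), Pfkfb1 (5.72 to 10.7 FPKM) and Ppargc1a (1.71 to 3.86 FPKM), the only regulator of transcription in the set. The 4 gluconeogenic enzymes and Slc37a4 summed to 2472 FPKM in VS against 2659 in VI, and 2836 in FS against 3080 in FI, with Pck1 supplying between 56.9% and 65.4% of the sum.

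**Figure D1:**
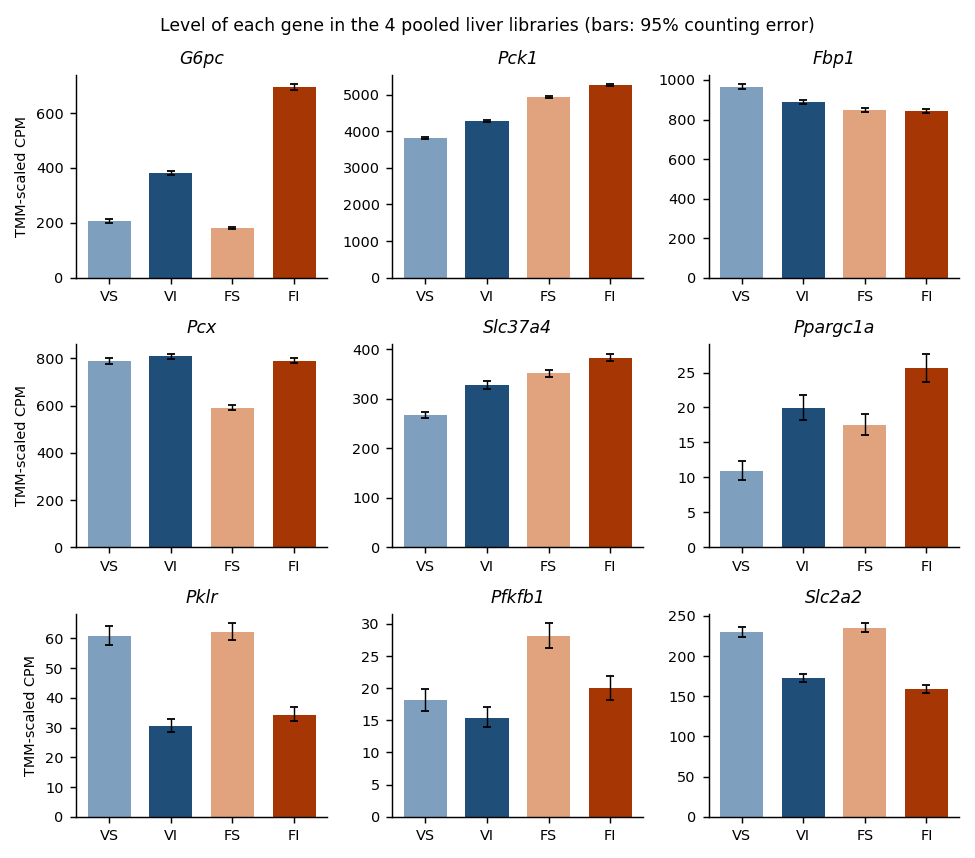
TMM-scaled CPM (vertical axes, each starting at 0) of the 9 genes in the 4 libraries, 1 pooled library of 4 mice per bar, with whiskers for the 95% counting interval. G6pc stands highest in FI at 694 CPM, and both trained libraries (VI, FI) lie below both sedentary ones (VS, FS) for Pklr and Slc2a2.

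The first question was which of these transcripts differed with training. G6pc and Ppargc1a were higher, and Pklr, Pfkfb1 and Slc2a2 lower, in the trained than in the sedentary library, both without and with fibrils. Pck1 and Slc37a4 were higher by small amounts and Fbp1 hardly differed. By a threshold of 2-fold, 0 of 9 genes passed between VI and VS, beside 3.44% of all 12180 genes, and 1 of 9, G6pc, passed between FI and FS, beside 4.26%. Pklr, at a log2 ratio of -0.99 in VI over VS, lay just inside the threshold and passed it under 3 other scalings. The median log2 ratio of the 9 genes was 0.04 in VI over VS and 0.09 in FI over FS, and that of all genes was 0.00 in both.

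G6pc encodes the catalytic subunit of glucose-6-phosphatase, the last step of glucose release (ENSMUSG00000078650, chromosome 11, 101367561 to 101377903, plus strand, positions as listed with the counts, for which the submitters' notes name the build mm10). Its level was 206 CPM in VS against 381 in VI, and 181 in FS against 694 in FI, from 4875, 9290, 5349 and 16799 counts. Both trained libraries were above both sedentary ones, and FI was far above the rest. The log2 ratio of VI to VS was 0.89 (0.84 to 0.94), a fold of 1.85, higher than that of 97.9% of all genes. The log2 ratio of FI to FS was 1.94 (1.89 to 1.98), a fold of 3.83, higher than that of 99.8% of all genes. The training ratio of G6pc was larger in fibril than in vehicle livers, by 1.05 on the log2 scale (0.99 to 1.12), and 5.11% of all genes had a difference at least as large in size. For G6pc, VI plus FS minus VS comes to 356 CPM, against the 694 CPM measured in FI. With 1 library per group, this difference between fibril and vehicle livers has no test.

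Ppargc1a, a coactivator that works with HNF4A and FOXO1 on gluconeogenic promoters (ENSMUSG00000029167, chromosome 5, 51454249 to 51567725, minus strand), was low in all libraries. It stood at 10.97 CPM in VS (259 counts) against 19.9 in VI (485 counts), and 17.6 in FS (518 counts) against 25.6 in FI (619 counts). VS was the lowest and FI the highest, with the libraries of a single intervention between them. The log2 ratio was 0.86 (0.64 to 1.08) in VI over VS and 0.54 (0.37 to 0.72) in FI over FS. From VS to FI the fold was 2.33. Skeletal muscle also expresses Ppargc1a, and the muscle markers were highest in VS, where Ppargc1a was lowest, and their part in its values was not tested.

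Pklr encodes the liver and red cell pyruvate kinase, which runs the last step of glycolysis against PEPCK (ENSMUSG00000041237, chromosome 3, 89136142 to 89146784, plus strand). It stood at 60.9 CPM in VS against 30.7 in VI, and 62.2 in FS against 34.4 in FI, from 1439, 747, 1835 and 832 counts. The trained libraries were close to each other and the sedentary ones were close to each other. The log2 ratio was -0.99 (-1.12 to -0.86) in VI over VS and -0.85 (-0.97 to -0.73) in FI over FS, with 1.95% and 3.57% of all genes further down. The 6 erythroid markers, from cells that use the same gene, summed to 360 CPM in VS against 283 in VI, and 253 in FS against 339 in FI, and their part in the Pklr values was not tested.

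Slc2a2, the GLUT2 transporter that lets glucose in and out of hepatocytes (ENSMUSG00000027690, chromosome 3, 28697903 to 28728356, plus strand), differed the same way at a smaller size. Its level was 230.0 CPM in VS against 173 in VI, and 235 in FS against 159 in FI. Both trained libraries lay below both sedentary ones, with log2 ratios of -0.41 (-0.47 to -0.35) in vehicle and -0.57 (-0.63 to -0.51) in fibril livers. Pfkfb1, the bifunctional enzyme that makes and breaks down fructose-2,6-bisphosphate, an activator of glycolysis and inhibitor of Fbp1 (ENSMUSG00000025271, chromosome X, 150588229 to 150643878, plus strand), stood at 18.1 CPM in VS against 15.4 in VI, and 28.1 in FS against 19.97 in FI. Its log2 ratios with training were -0.23 (-0.44 to -0.03) in vehicle and -0.49 (-0.66 to -0.33) in fibril livers, and here the trained FI library was above the sedentary VS one.

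The other gluconeogenic genes differed less. Pck1 (ENSMUSG00000027513, chromosome 2, 173153048 to 173159273, plus strand) stood at 3810 CPM in VS against 4271 in VI, and 4935 in FS against 5252 in FI, with training log2 ratios of 0.16 (0.15 to 0.18) in vehicle and 0.09 (0.08 to 0.10) in fibril livers. Slc37a4, which carries glucose-6-phosphate into the endoplasmic reticulum (ENSMUSG00000032114, chromosome 9, 44398176 to 44402963, plus strand), stood at 267 CPM in VS against 328 in VI, and 352 in FS against 383 in FI, with log2 ratios of 0.30 (0.25 to 0.34) and 0.12 (0.08 to 0.17). Both genes were lowest in VS, followed by VI, FS and FI.

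Fbp1 (ENSMUSG00000069805, chromosome 13, 62864753 to 62888282, minus strand) was nearly level, at 966 CPM in VS against 889 in VI, and 846 in FS against 844 in FI. Its training log2 ratio was -0.12 (-0.15 to -0.09) in vehicle livers. In fibril livers it was -0.00 (-0.03 to 0.02) and took the other sign, by as little, under DESeq2 size factors. Pcx, the mitochondrial enzyme that opens the pathway (ENSMUSG00000024892, chromosome 19, 4510472 to 4621752, plus strand), stood at 789 CPM in VS against 809 in VI, and 592 in FS against 791 in FI. For Pcx only FS was low, and the training log2 ratio was 0.04 (0.01 to 0.06) in vehicle and 0.42 (0.39 to 0.45) in fibril livers. Genes on the opposite strand overlap Pcx, Pklr, Pfkfb1 and Slc2a2, and no source used here says whether counting used strand. Of these, Apex2, which overlaps Pfkfb1, had 102 to 193 counts, Hcn3 at Pklr 57 to 114, Lrfn4 at Pcx 25 to 70 and 1700112D23Rik at Slc2a2 3 to 9.

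**Figure D2:**
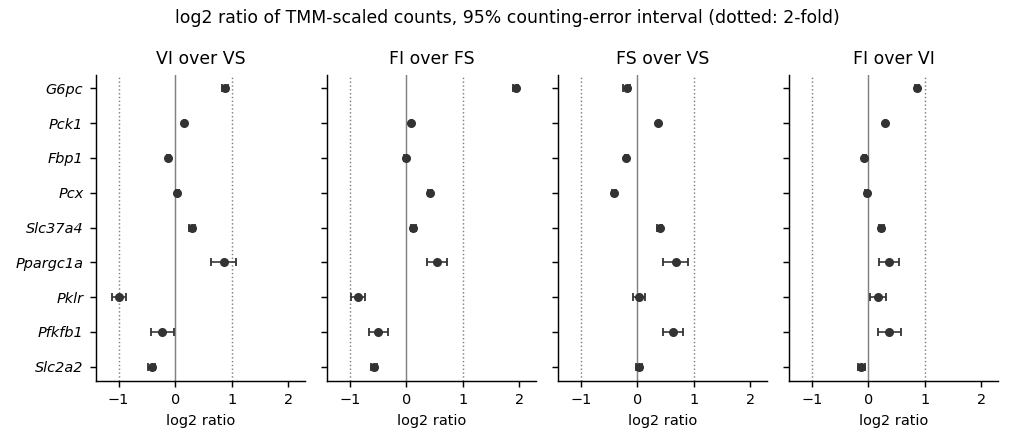
Log2 ratios of TMM-scaled counts (horizontal axes) for the 9 genes in the 4 contrasts, with whiskers for the 95% counting interval and dotted lines at 2-fold. G6pc in FI over FS, at 1.94, is the only point past a dotted line, and Pklr lies at -0.99 and -0.85 in the training contrasts.

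The second question was which transcripts differed with fibril injection. Ppargc1a, Pfkfb1, Slc37a4 and Pck1 were higher in the fibril library in both contrasts, while G6pc was lower without training and higher with it. Beyond 2-fold, 0 of 9 genes passed in FS over VS, beside 5.78% of all genes, and 0 of 9 passed in FI over VI, beside 4.54%. The median log2 ratios of the 9 genes were 0.03 and 0.23, beside 0.02 and 0.01 over all genes. The training and fibril contrasts share libraries, so their values are given side by side only.

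For Ppargc1a the log2 ratio was 0.68 (0.46 to 0.90) in FS over VS and 0.36 (0.19 to 0.54) in FI over VI. Pfkfb1 had log2 ratios of 0.63 (0.46 to 0.81) and 0.37 (0.17 to 0.57) in the same contrasts. Slc37a4, at 0.40 (0.35 to 0.44) and 0.23 (0.18 to 0.27), and Pck1, at 0.37 (0.36 to 0.39) and 0.30 (0.29 to 0.31), came next. These genes were thus higher in each fibril library than in the vehicle library of the same training. For Ppargc1a in single livers, by PCR and western blot, the study reports a rise with IT but none with amyloid deposition. G6pc was at -0.19 (-0.24 to -0.13) in sedentary and 0.86 (0.83 to 0.90) in trained livers. Pcx was at -0.41 (-0.44 to -0.38) and -0.03 (-0.06 to -0.00), and Fbp1 at -0.19 (-0.22 to -0.17) and -0.08 (-0.10 to -0.05). Pklr, at 0.03 (-0.07 to 0.13) and 0.17 (0.02 to 0.31), and Slc2a2, at 0.03 (-0.02 to 0.08) and -0.12 (-0.19 to -0.06), had smaller fibril ratios than training ratios.

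A test exists only if the effects of training and of fibrils are taken to add up on the log scale. This additive model, fitted by quasi-likelihood in edgeR over 11760 genes, has 1 residual degree of freedom, which is the interaction of both factors, and a gene that responds unequally therefore gets a large error. For training it called 1 of 9 genes, beside 1.34% of all genes. An unadjusted p below 0.05 was found for 5 of 9, beside 1710 of the 11760 genes (edgeR quasi-likelihood F test). The gene called was Pklr, lower in 2 of 2 trained libraries. It fell by 0.92 on the log2 scale with training (SE 0.11, adjusted p = 0.013, edgeR quasi-likelihood F test, Benjamini-Hochberg). Without the fibril term its adjusted p was 0.26 (edgeR quasi-likelihood F test, Benjamini-Hochberg). G6pc had the largest estimate of the 9 genes and missed the threshold, at 1.41 (SE 0.24, adjusted p = 0.054, edgeR quasi-likelihood F test, Benjamini-Hochberg), higher in 2 of 2 trained libraries. Under the other settings its adjusted p ran from 2.4e-18 without a filter on low counts to 0.61 without the fibril term (both by the edgeR quasi-likelihood F test, Benjamini-Hochberg), so the call on G6pc changed with the fit. Ppargc1a, at 0.70 (SE 0.14, adjusted p = 0.072), and Slc2a2, at -0.49 (SE 0.12, adjusted p = 0.11), were not called in this fit (edgeR quasi-likelihood F test, Benjamini-Hochberg). Their calls changed with the fit too. Both were called without a filter on low counts, and Ppargc1a also with DESeq2 size factors.

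For fibrils the model called 0 of 9 genes by edgeR, beside 4.59% of all genes. An unadjusted p below 0.05 was found for 3 of 9, beside 2482 of the 11760 genes (edgeR quasi-likelihood F test). DESeq2 and limma-voom called 0 as well, beside 470 and 688 of the 11760 genes. Without a filter on low counts edgeR called 2, Ppargc1a and Pfkfb1, beside 1519 of 19939 genes. In the filtered fit Pfkfb1 stood at 0.51 (SE 0.14, adjusted p = 0.086) and Ppargc1a at 0.51 (SE 0.14, adjusted p = 0.092, both by the edgeR quasi-likelihood F test, Benjamini-Hochberg). The fibril estimate of G6pc, 0.34 (SE 0.24), averages a lower value without training and a higher one with it.

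Enzymes that run a step in opposite directions were compared within each library as a ratio of FPKM levels, which does not depend on library scaling. Pck1 over Pklr was 66.5 in VS against 148 in VI, and 84.5 in FS against 163 in FI, and Pcx over Pklr was 9.06, 18.5, 6.66 and 16.1. Both ratios were higher in the trained libraries. The fold in vehicle and in fibril livers was 2.23 and 1.92 for Pck1 over Pklr, and 2.04 and 2.42 for Pcx over Pklr. Both have Pklr as denominator, whose scaled counts were 1.99-fold and 1.81-fold lower with training. Those of Pck1 were 1.12-fold and 1.06-fold higher and those of Pcx 1.025-fold and 1.34-fold higher. These ratios are therefore not separate from the Pklr difference. Fbp1 over Pfkl, the liver phosphofructokinase, stayed between 42.8 and 52.8. G6pc over its transporter partner Slc37a4 was 0.667 in VS against 1.004 in VI, and 0.445 in FS against 1.56 in FI, so this pair did not keep step.

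**Figure D3:**
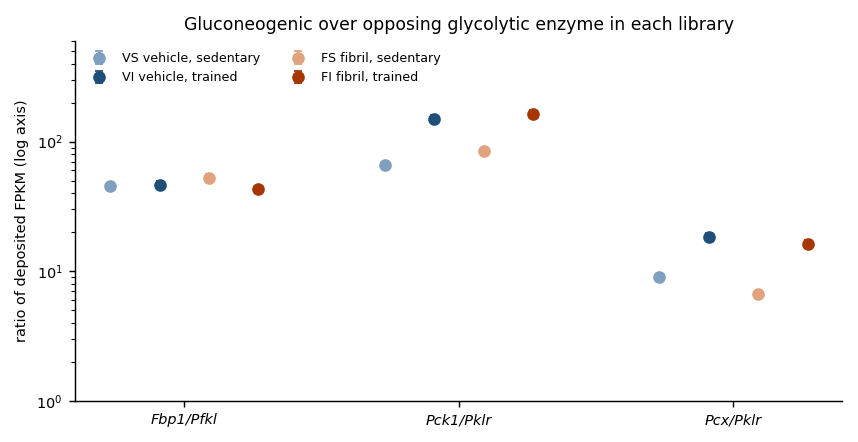
Ratio of the FPKM of a gluconeogenic enzyme to that of an opposing glycolytic enzyme (log axis) in each library, with whiskers for the 95% counting interval. Pck1 and Pcx over Pklr, which share their denominator, are higher in both trained libraries, and Fbp1 over Pfkl stays between 42.8 and 52.8.

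The other genes of the pathway were counted in 8 lists, with the calls of the additive edgeR model. The lists were chosen with earlier results of these data known. Got1, Sds, Lpin1, Fgf21, Nr4a1, Trib3, Pfkfb3, Ppp1r3g, Txnip and Thrsp are named because they passed 2-fold in these data. Over all genes the edgeR model called 1.34% for training and 4.59% for fibrils. DESeq2 called 182 and 470 of the 11760 genes for training and fibrils, and limma-voom 228 and 688. Of the 11760 genes 1710 had an unadjusted p below 0.05 for training and 2482 for fibrils (edgeR quasi-likelihood F test). A list's share near these is no result about the list. The 8 reversible enzymes shared by glycolysis and gluconeogenesis, such as Gapdh and Tpi1, had log2 ratios between -0.38 and 0.57 in the 4 contrasts. By edgeR, DESeq2 and limma-voom 0 of these 8 were called for either factor, and by edgeR 1 of 8 had an unadjusted p below 0.05 for training and 0 of 8 for fibrils. Of 18 measured genes of substrate supply, 2 rose with training, and 3 rose and 3 fell with fibrils, beside the 1.34% and 4.59% of all genes. DESeq2 called 2 and 5 of these genes and limma-voom 2 and 6. Got1, the cytosolic aspartate aminotransferase, rose with both, from 86.6 CPM in VS to 454 in VI, 376 in FS and 947 in FI (training 1.86, adjusted p = 0.027, fibrils 1.58, adjusted p = 0.019, edgeR quasi-likelihood F test, Benjamini-Hochberg). Sds, the serine dehydratase that makes pyruvate from an amino acid, rose with both, from 54.6 CPM in VS to 114 in VI, 114 in FS and 178 in FI (adjusted p = 0.034 and 0.016, edgeR quasi-likelihood F test, Benjamini-Hochberg). The other genes called for fibrils were likewise named after their values were seen. Higher with fibrils was Gpt2, an alanine aminotransferase, at 0.75 on the log2 scale. Lower were the glycerol kinase Gk at -0.75, the dicarboxylate carrier Slc25a10 at -0.62 and the lactate and pyruvate transporter Slc16a1 at -0.55.

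Of 10 measured insulin-repressed or fasting-induced genes, 3 rose with training, and 3 rose and 1 fell with fibrils by edgeR, beside 1.34% and 4.59% of all genes. DESeq2 called 3 and 4 of them, beside 182 and 470 of all 11760 genes. Limma-voom called 5 and 4, beside 228 and 688. The 3 that rose with both were Igfbp1, a binding protein for insulin-like growth factors (154, 533, 585 and 1396 CPM in VS, VI, FS and FI), Tat, the tyrosine aminotransferase (938, 2018, 3226 and 5278 CPM), and Lpin1, a phosphatidate phosphatase and coactivator (111, 241, 429 and 690.3 CPM). Each was lowest in VS and highest in FI. Fgf21, a fasting hormone, fell by 1.77 on the log2 scale with fibrils (adjusted p = 0.0086, edgeR quasi-likelihood F test, Benjamini-Hochberg). Pdk4, the kinase that shuts pyruvate dehydrogenase, was not called. It stood at 26.0 CPM in VS against 51.0 in VI, and 5.79 in FS against 44.5 in FI, and its FI to FS log2 ratio was 2.94 (2.71 to 3.18), beside the 1.94 of G6pc.

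Of 20 transcription factors and coregulators of gluconeogenesis, 1 rose with training, beside 1.34% of all genes, and 1 fell with fibrils, beside 4.59% of all genes. DESeq2 and limma-voom also called 1 for each. The former was Nr4a1, a cyclic AMP-induced nuclear receptor, at 1.91, 5.13, 2.51 and 7.23 CPM (training 1.48, adjusted p = 0.029, edgeR quasi-likelihood F test, Benjamini-Hochberg). The latter, named after its values were seen, was Foxa2, a forkhead factor, at 37.5, 36.5, 24.5 and 20.7 CPM. Of the partners of Ppargc1a, Foxo1 lay between 50.9 and 66.4 CPM and Hnf4a between 728 and 1014 CPM. Crtc2, another listed coregulator, lay between 29.9 and 37.5 CPM. Nr0b2, a repressor, lay between 65.1 and 74.8 CPM, and Creb3l3, a membrane-bound factor of the liver, between 354 and 478 CPM. Among 14 genes of hormone signalling 1 was called for fibrils, beside 4.59% of all genes. It was Trib3, an inhibitor of AKT, which was higher with fibrils (1.07, adjusted p = 0.019, edgeR quasi-likelihood F test, Benjamini-Hochberg). Trib3 stood at 6.9 CPM in VS against 4.27 in VI, and 16.5 in FS against 7.73 in FI. For training edgeR and DESeq2 called 0 of the 14 and limma-voom called 2. By edgeR 4 had an unadjusted p below 0.05, beside 1710 of the 11760 genes. The glucagon receptor Gcgr was highest in VS, at 351 CPM, and lowest in FI, at 210.1 CPM, and the insulin receptor Insr lay between 122 and 134.5 CPM.

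Of 11 carbohydrate response genes, 1 fell with training by edgeR, beside 1.34% of all genes, while DESeq2 and limma-voom each called 2. It was Tkfc, a kinase of fructose metabolism named after its values were seen, at 294 CPM in VS against 175 in VI, and 405.5 in FS against 256 in FI. For fibrils edgeR and DESeq2 called 0 of the 11 and limma-voom called 1. By edgeR 5 had an unadjusted p below 0.05, beside 2482 of the 11760 genes. Mlxipl, the factor that drives Pklr, stood at 292 CPM in VS against 215 in VI, and 163 in FS against 207 in FI. These are transcript levels, and the part of the factor in the Pklr values was not tested. Txnip, an inhibitor of glucose uptake, stood at 171, 183, 91.8 and 392 CPM, and Thrsp, a lipogenic gene, at 167, 71.8, 192 and 147 CPM.

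Of 13 genes of glucose uptake and glycolysis 1 was called for fibrils, beside 4.59% of all genes. It was Pfkfb3, a relative of Pfkfb1 with strong kinase activity. Pfkfb3 rose from 5.59 CPM in VS and 6.28 in VI to 20.9 in FS and 17.8 in FI (1.70, adjusted p = 0.0045, edgeR quasi-likelihood F test, Benjamini-Hochberg). For training 0 of the 13 were called by edgeR, DESeq2 or limma-voom. By edgeR 1 had an unadjusted p below 0.05, beside 1710 of the 11760 genes. Gckr, a regulator of glucose uptake, lay between 136 and 169.5 CPM. Of 9 glycogen enzymes 1 was called for training, beside 1.34% of all genes. It was Ppp1r3g, a subunit that directs phosphatase to glycogen, which rose (1.55, adjusted p = 0.030, edgeR quasi-likelihood F test, Benjamini-Hochberg). For fibrils edgeR and limma-voom called 0 of the 9 and DESeq2 called 1. By edgeR 4 had an unadjusted p below 0.05, beside 2482 of the 11760 genes.

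**Figure D4:**
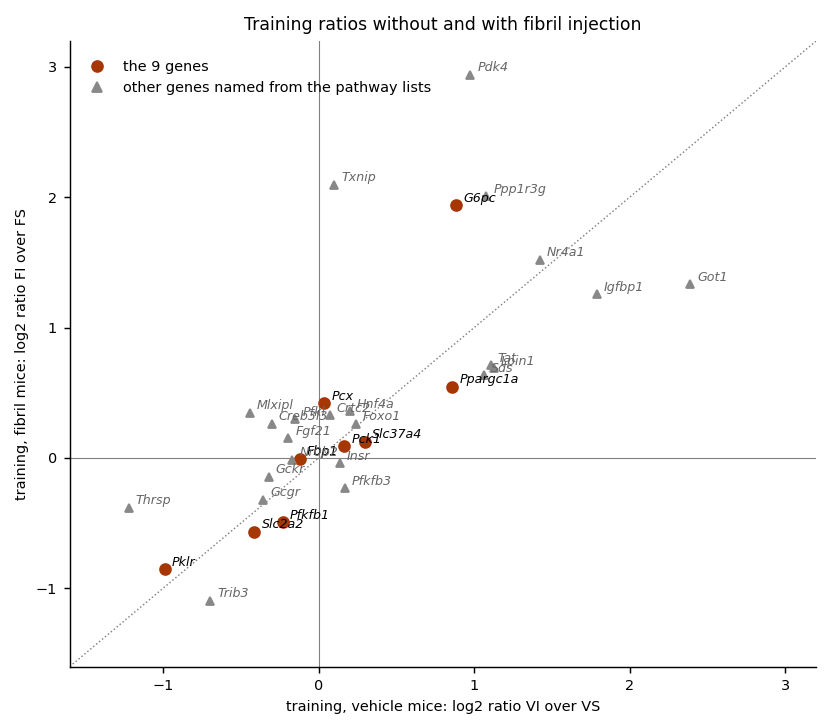
Log2 ratio of trained to sedentary libraries in vehicle mice (VI over VS, horizontal) and in fibril mice (FI over FS, vertical) for the 9 genes and for other pathway genes named in the text, with the dotted line where both are equal. G6pc lies above the line at 0.89 and 1.94, next to Ppp1r3g at 1.08 and 2.01, and Pklr lies near it at -0.99 and -0.85.

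The genes whose pattern over the 4 libraries was most like that of G6pc or Pklr were sought among 5057 genes with a mean of at least 20 CPM, by the Euclidean distance of log2 CPM after the mean of each gene was taken off. For G6pc they were Ppp1r3g (distance 0.27), Plin5, a lipid droplet protein (0.39), Acacb, an acetyl-CoA carboxylase (0.46), Ablim3 (0.49) and Txnip (0.62). Plin5 stood at 60.7, 117, 75.3 and 249 CPM and Acacb at 34.3, 55.7, 32.9 and 82.7 CPM in VS, VI, FS and FI. For Pklr they were Slc17a4 (0.16), RP23-8J15.1 (0.21), Ociad2 (0.22), Elovl6, a fatty acid elongase (0.23), and Mcm10 (0.25). A likeness over 4 libraries is a description only.

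**Figure D5:**
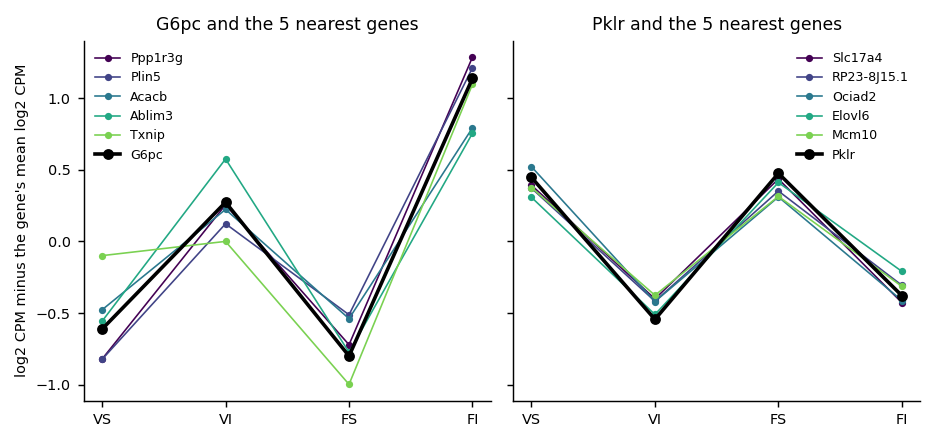
Log2 CPM minus the mean log2 CPM of each gene (vertical axis) in the 4 libraries for G6pc and for Pklr (black) and the 5 genes nearest to each (thin lines). The G6pc set is highest in FI, with Txnip nearly level between VS and VI, and the Pklr set is low in both trained libraries.

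Gluconeogenic genes are more active in periportal than in pericentral hepatocytes, so markers of both were read. The 8 periportal markers, among them Sds, summed to 3753 CPM in VS against 5722 in VI, and 5045 in FS against 6612 in FI, with 7 of 8 higher in VI than in VS and 6 of 8 higher in FI than in FS. The 8 pericentral markers summed to 12520 CPM in VS against 11040 in VI, and 7057 in FS against 10090 in FI. Most of each sum was Cyp2e1, at 11180, 9742, 6011 and 8798 CPM in VS, VI, FS and FI, so the sums mainly follow this gene. Counted gene by gene, the training log2 ratio was above 0 for 4 of 8 pericentral markers in vehicle livers and 5 of 8 in fibril livers. The 8 Kupffer cell markers summed to 263, 317, 400.4 and 389 CPM. The largest periportal levels were those of Ass1, at 1194, 2427, 2060 and 3130 CPM in VS, VI, FS and FI. Cyp2f2 ran the other way, at 381, 295, 268 and 232 CPM. The fibril log2 ratio was above 0 for 5 of 8 periportal markers in sedentary livers and 4 of 8 in trained livers. From lowest to highest the periportal sum ran VS, FS, VI, FI, an order that its markers do not all share. It is also the order of Ppargc1a, and the part of the periportal share in the Ppargc1a values was not tested.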

How the data were processed

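Members and gene lists were chosen with earlier results of these data known. The authors deposited raw read counts per gene for 4 pooled liver libraries, and FPKM values that the authors made from count, gene length and library total (100% of 69722 deposited values above 0 within 0.1%). The submitters' processing notes name fastp 0.23.2, STAR 2.5, HTSeq 0.6.1 and the build mm10, with no role given. Counts were scaled by TMM (edgeR 4.0.16, R 4.3.3). A prior of 0.5 counts was added before log2 ratios were taken, their 95% intervals are Clopper-Pearson intervals of the conditional binomial, and genes with at least 1 CPM in 1 library were kept. The additive model (fibrils plus training, robust fit) took genes with at least 1 CPM in 2 libraries. It was run on simulated counts without fibril effects or an interaction, which cannot show how well its p-values hold here. DESeq2 1.42.0 and limma 3.58.1 (voom) were alternatives. Python 3.11.15 with matplotlib 3.10.9 drew the figures. Named genes were all 9 members, listed regulators and response genes, list genes beyond 2-fold with at least 5 CPM in 1 library, and the 5 genes nearest in pattern to G6pc and to Pklr. Of the listed genes 1 (Tf, a hepatocyte marker) could not be matched. Single mice were not analysed here, and some listed genes are not reported here.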

Additional observations from a re-analysis of the deposited data

Results flagged for a closer look

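For 6 of the genes described, a ratio took opposite directions in the groups compared, with both counting intervals away from 0 under TMM scaling. With 1 library per group none of these differences was tested. For G6pc the FS to VS log2 ratio was -0.19 and the FI to VI ratio 0.86, a difference of 1.05 between trained and sedentary livers. The same difference was 1.995 for Txnip (-0.90 and 1.10) and 0.17 for Gckr (-0.10 and 0.07). For Gckr the FI to VI interval began at 0.0033. With DESeq2 size factors the all-gene median of this contrast shifted by -0.0050, which is more than that margin. For 3 genes the training ratio was below 0 in vehicle and above 0 in fibril livers. The difference was 0.79 for Mlxipl (-0.44 and 0.35), 0.56 for Creb3l3 (-0.30 and 0.26) and 0.45 for Pfkl (-0.15 and 0.30).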

How the results depend on the processing

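No paired analysis was possible because each group is 1 pooled library, and no replicate could be left out. Pklr passed 2-fold in VI over VS under total counts, total counts outside the 10 most abundant genes and FPKM with a pseudocount of 0.1, which gave 1 member in place of 0. A fold of 1.5 gave 3, 2, 2 and 1 members in VI over VS, FI over FS, FS over VS and FI over VI. The share of all genes past 1.5-fold is not given here, so these counts are no result about the members. The members' median in FI over FS was 0.019 under total counts and both FPKM settings and 0.020 outside the 10 most abundant genes, against 0.090. Genes beyond 2-fold in the same contrasts numbered 4035, 4044, 4429 and 4197 with no filter and 144, 203, 353 and 229 at 5 CPM. Members called for training numbered 2 without robust estimation, 0 with that factor alone, 2 with DESeq2 size factors, 4 with no filter and 2 with limma-voom, against 1, and for fibrils 2 with no filter, against 0. Over all genes, calls for training were 157, but 241 with DESeq2 size factors, 740 with no filter, 91 at 5 CPM and 0 alone, and for fibrils 540, but 1519 with no filter and 8 alone. Of 180 recomputed member ratios 1 changed sign, Fbp1 in FI over FS (-0.0045 to 0.0049, DESeq2 size factors), and the largest move was 0.28 (FPKM with a pseudocount of 1, which shrinks low genes). Apart from that pseudocount and the factors fitted alone, where the model has fewer terms, the cause was not tested. At the depth here a count of 0 allows up to 0.127 CPM.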
